A study of Mus musculus with 13 samples.

Results

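The creatine kinase and phosphotransfer genes described here are 7 genes of the heart's high-energy phosphate exchange: Ckm, Ckmt2, Ckb, Slc6a8, Gamt, Ak1 and Ak3. They were chosen by symbol, with earlier results of these data known, and all 7 were found among 36172 gene entries of the count table. RNA was sequenced from left ventricular muscle away from the ischaemic zone of C57BL/6JO1aHsd mice, 8 to 10 weeks old when treatment began. Sham mice (n = 3) had sham surgery and no antibody. MI+IgG mice (n = 5) had a permanent ligation of the left anterior descending coronary artery (myocardial infarction, MI) and a control IgG antibody at 10 mg/kg. MI+FG-3149 mice (n = 5) had the same ligation and FG-3149, a monoclonal antibody against connective tissue growth factor (CTGF), at 10 mg/kg. All groups carry the time label 1W+6W, which the labels do not spell out. A comparison with sham therefore combines the infarction with an antibody injection, and by their labels only MI+FG-3149 and MI+IgG differ in the antibody alone.

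In the creatine kinase system, mitochondrial creatine kinase passes the phosphate of newly made ATP to creatine, and cytosolic creatine kinase returns it to ADP beside the myofibrils and ion pumps. Creatine is made from guanidinoacetate by the methyltransferase GAMT or taken up from blood by the transporter encoded by Slc6a8, which in heart muscle is the main source. Adenylate kinases regenerate ATP from paired ADP molecules and yield AMP, the signal read by the AMP-activated protein kinase (AMPK).

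Estimated counts summed to between 12025880 and 14999813 per sham library, between 13084735 and 17567238 per MI+IgG library and between 10954922 and 12794823 per MI+FG-3149 library. The tissue label was checked against marker genes fixed for each cell type. The summed level of 12 cardiomyocyte markers, led by Mb and Myl2, was 71342 to 74032 RPKM (reads scaled for transcript length and library size) in sham, 63645 to 69395 in MI+IgG and 65427 to 68930 in MI+FG-3149. No marker list had a gene at 0 in all 13 libraries among those in the RPKM table, and fast skeletal muscle markers summed to at most 5.37 RPKM. The libraries differed in how reads spread along transcripts. Over transcripts with at least 4 exons, first exons (the 5′ end) took between 1.66% and 1.85% of exon counts in sham, between 1.87% and 2.49% in MI+IgG and between 3.18% and 3.50% in MI+FG-3149. No FG-3149 library overlapped an IgG library (p = 0.00794, exact 2-sided permutation test of 252 groupings, the smallest it can give). The labels name no batch for it, so this difference and the antibody cannot be told apart in that comparison. The shares in sham also lay below all those in MI+IgG (p = 0.0357, exact 2-sided permutation test of 56 groupings). In the comparisons with sham, the read spread and the treatment cannot be told apart either.

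In MI+IgG replicates 4 and 5, markers of atrial muscle stood apart. The atrial light chain Myl4 was at 25.1 and 34.5 RPKM there, against 1.36 to 3.86 RPKM in the other 11 libraries. Myl7 and Sln, looked at after their values were seen, were at 14.6 and 23.1 RPKM and at 1.05 and 4.41 RPKM, against at most 0.448 and 0.160 RPKM elsewhere. Nppa, which encodes atrial natriuretic peptide and is also made by the strained ventricle, was instead high in every infarcted library, at 1326 to 4297 RPKM against 119.4 to 148.1 RPKM in sham. Leaving out both libraries changed no call of the 7 genes: Ckb was still called in MI+IgG against sham, and 0 of 7 passed in MI+FG-3149 against MI+IgG.

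The positions where 3 creatine kinase genes and the main Ak1 transcripts start are shown because the share of reads at 5′ ends differed between the groups. Each sequence is the RefSeq sequence on build GRCm38.p6 (mm10), 5′ to 3′, with 100 bases before the annotated start in lower case and the first 30 transcribed bases in capitals.
Ckm, chr7:19410994-19411123, plus strand: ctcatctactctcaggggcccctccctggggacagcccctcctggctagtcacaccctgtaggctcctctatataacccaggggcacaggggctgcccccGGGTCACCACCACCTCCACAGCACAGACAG
Ckmt2, chr13:91876856-91876985, minus strand: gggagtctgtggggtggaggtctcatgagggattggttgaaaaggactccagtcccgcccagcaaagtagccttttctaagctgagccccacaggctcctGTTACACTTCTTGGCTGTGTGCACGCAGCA
Ckb, chr12:111672309-111672438, minus strand: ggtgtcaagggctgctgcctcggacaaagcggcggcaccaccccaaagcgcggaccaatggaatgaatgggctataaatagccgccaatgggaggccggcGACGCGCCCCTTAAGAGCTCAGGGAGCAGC
Ak1 transcript NM_001198791, chr2:32625337-32625466, plus strand: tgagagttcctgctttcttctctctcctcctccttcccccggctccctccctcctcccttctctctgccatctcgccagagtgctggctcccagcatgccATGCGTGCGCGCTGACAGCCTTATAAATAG
Ak1 transcript NM_001198792, chr2:32628290-32628419, plus strand: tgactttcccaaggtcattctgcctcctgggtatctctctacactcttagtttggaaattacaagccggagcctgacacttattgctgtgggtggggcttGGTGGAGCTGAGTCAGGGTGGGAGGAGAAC

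In a window of 250 bases before to 50 bases after each start, the letters TATAAA occurred on either strand in 13.6% of 32851 RefSeq promoters. Among these 5 starts, Ckb had them, with the first letter 28 bases before the start. So did the start of NM_001198791, where they begin at base 22 of the transcript. Only these exact letters were sought, so related letters such as TATATAA before the Ckm start were not counted. The letters CCAAT, found in 37.4% of all promoters, occurred in the windows of Ckmt2 and Ckb. The palindrome CANNTG, the E-box core, occurred in 72.3% of all promoters. It was in the windows of Ckm, Ckmt2 and both Ak1 starts, and these letters were not in the Ckb window. Of the 7 genes, 6 had an entry in the RefSeq promoter table.

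Per transcript length, the mitochondrial and muscle creatine kinases dominated the set. Ckmt2, the sarcomeric mitochondrial isoform (Entrez gene 76722, chromosome 13, 91853387 to 91876885), had 1743 ± 33.4 RPKM in sham (SD, n = 3). Ckm, the muscle cytosolic isoform that also binds the M-band of the sarcomere (Entrez gene 12715, chromosome 7, 19411094 to 19421583), had 1646 ± 9.93 RPKM. Ak1, the main cytosolic adenylate kinase of muscle (Entrez gene 11636, chromosome 2, 32621758 to 32635058), followed with 325.8 ± 8.73 RPKM. Slc6a8, the creatine transporter (Entrez gene 102857, chromosome X, 73673133 to 73682500), had 63.5 ± 2.70 RPKM. Ak3, the GTP:AMP phosphotransferase of the mitochondrial matrix (Entrez gene 56248, chromosome 19, 29020832 to 29047902), had 60.9 ± 1.05 RPKM. Ckb, the brain-type cytosolic isoform found in many non-muscle cells (Entrez gene 12709, chromosome 12, 111669355 to 111672338), had 29.1 ± 3.56 RPKM. Gamt (Entrez gene 14431, chromosome 10, 80258151 to 80260968) was last with 3.02 ± 0.176 RPKM. The order held within every one of the 13 libraries, except that Slc6a8 fell below Ak3 in 1 of 5 FG-3149 libraries. In sham the ranges of these neighbours overlapped, with 60.4 to 65.6 RPKM for Slc6a8 and 60.0 to 62.0 RPKM for Ak3.

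**Figure D1:**
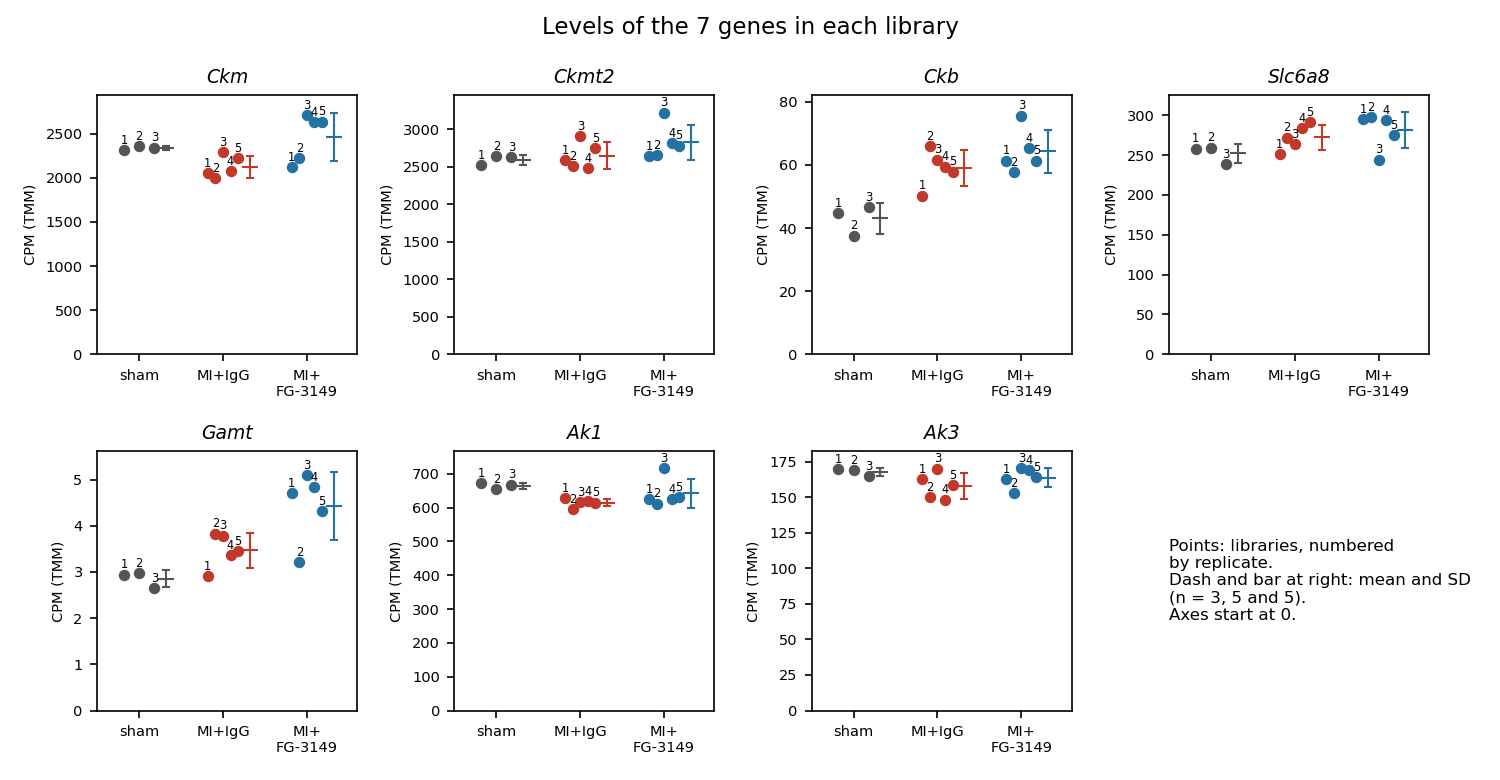
Level of each gene (CPM with TMM factors, y axis from 0) in every library of sham, MI+IgG and MI+FG-3149; points are libraries numbered by replicate, and the dash with bar is the mean with SD. All IgG and FG-3149 libraries lie above all sham libraries for Ckb, while Ckm is high in FG-3149 replicates 3, 4 and 5.

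After infarction with IgG, the brain-type isoform rose and the 6 other genes did not pass the test. Of the 7 genes, 1 was called higher and 0 lower in MI+IgG against sham, where 17.8% of 13434 tested genes were called higher and 15.9% lower (edgeR quasi-likelihood test, Benjamini-Hochberg adjusted p under 0.05 over all tested genes). The median log2 fold change was 0.03 over the 7 genes and -0.00103 over all tested genes. Levels for these tests are CPM, counts scaled by library size with TMM factors.

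Ckb was at 44.8, 37.6 and 46.7 CPM in sham replicates 1 to 3. With IgG it was at 50.2, 65.9, 61.6, 59.5 and 57.8 CPM in replicates 1 to 5. The groups did not overlap, and replicate 1 was the lowest IgG library. Ckb rose 1.38-fold (log2 0.46 ± 0.10 SE, edgeR adjusted p = 0.00141). The call held in all 21 alternative analyses, with adjusted p from 0.000125 to 0.0155. Leaving out first exons gave a log2 fold change of 0.47, and counting last exons alone gave 0.49. Without MI+IgG replicates 4 and 5 it was 0.465 (edgeR adjusted p = 0.00754).

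Markers of other cell types went in different directions. The summed level of 8 fibroblast markers, led by Dcn and Postn, was 459.3 to 496.7 RPKM in sham, 876.4 to 1284 in MI+IgG and 683.9 to 848.2 in MI+FG-3149, and 7 of 8 were called higher with IgG than in sham and with FG-3149 than in sham. With FG-3149 this sum was below every IgG library, and 1 of 8 was called lower than with IgG. The mean of Ckb was 64.3 CPM with FG-3149 and 59.0 CPM with IgG, with overlapping libraries and no call (edgeR adjusted p = 0.549). The 7 measured macrophage markers, led by Lyz2 and C1qb, summed to 214.0 to 224.4 RPKM in sham, 312.2 to 455.6 in MI+IgG and 319.1 to 510.6 in MI+FG-3149, and 5 of 7 were called higher with IgG and 6 of 7 with FG-3149. Endothelial markers, led by Cdh5 and Egfl7, summed to 376.2 to 402.7, 307.7 to 400.0 and 320.7 to 347.2 RPKM in the same order of groups, and 0 of 7 were called higher, with 2 lower with IgG and 4 lower with FG-3149. The part of these cells in the Ckb difference was not tested. In bulk tissue, a change in the number of cells of a type and a change in RNA per cell cannot be told apart.

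Ckm was at 2314, 2360 and 2340 CPM in sham and at 2051, 1997, 2288, 2073 and 2224 CPM with IgG. All IgG libraries lay below all sham libraries, but the difference did not pass the test (log2 -0.14 ± 0.07 SE, edgeR adjusted p = 0.169). Its 95% interval allowed a fold from 0.816 to 1.01. Ak1 was at 672, 654 and 668 CPM in sham and between 597 and 627 CPM with IgG, with a median of 616. These libraries did not overlap either, and the log2 difference was -0.11 ± 0.05 (SE, edgeR adjusted p = 0.111). Groups that do not overlap in this comparison occurred for 35.8% of tested genes.

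Ckmt2 had 2594 ± 65.4 CPM in sham (SD, n = 3) and 2647 ± 179.1 CPM with IgG (SD, n = 5). The interval of its fold was 0.925 to 1.13. Slc6a8 had 252.1 ± 11.6 CPM in sham against 272.3 ± 15.6 CPM in MI+IgG, with an interval of 0.981 to 1.19. Ak3 had 167.7 ± 2.72 and 157.8 ± 9.01 CPM, with an interval of 0.869 to 1.02. For these 3 genes the libraries of both groups overlapped, and the intervals reach from 0.869 to 1.19. Gamt had 2.86 ± 0.18 CPM in sham against 3.47 ± 0.37 CPM in MI+IgG, with an interval of 0.936 to 1.58. Gamt rested on 32 to 68 counts per library and its interval is the widest of the 7. On last exons alone its log2 difference was 0.70 and passed (edgeR adjusted p = 0.0404).

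The makeup of creatine kinase transcripts shifted within these small changes. Ckb made up 0.902%, 0.734% and 0.916% of the summed RPKM of Ckm, Ckmt2 and Ckb in sham. With IgG its share was 1.055% to 1.42% and with FG-3149 1.10% to 1.25%. Its share was thus higher in all 10 infarcted libraries than in any sham library, while remaining near 1 part in 100. The ratio of Ckmt2 to Ckm in RPKM was 1.04, 1.07 and 1.07 in sham and 1.14 to 1.21 with IgG, without overlap. With FG-3149 it was 1.19, 1.14, 1.13, 1.02 and 1.01 in replicates 1 to 5, so that replicates 4 and 5 lay below all sham libraries. No p is given for these ratios, since the genes were chosen together.

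**Figure D2:**
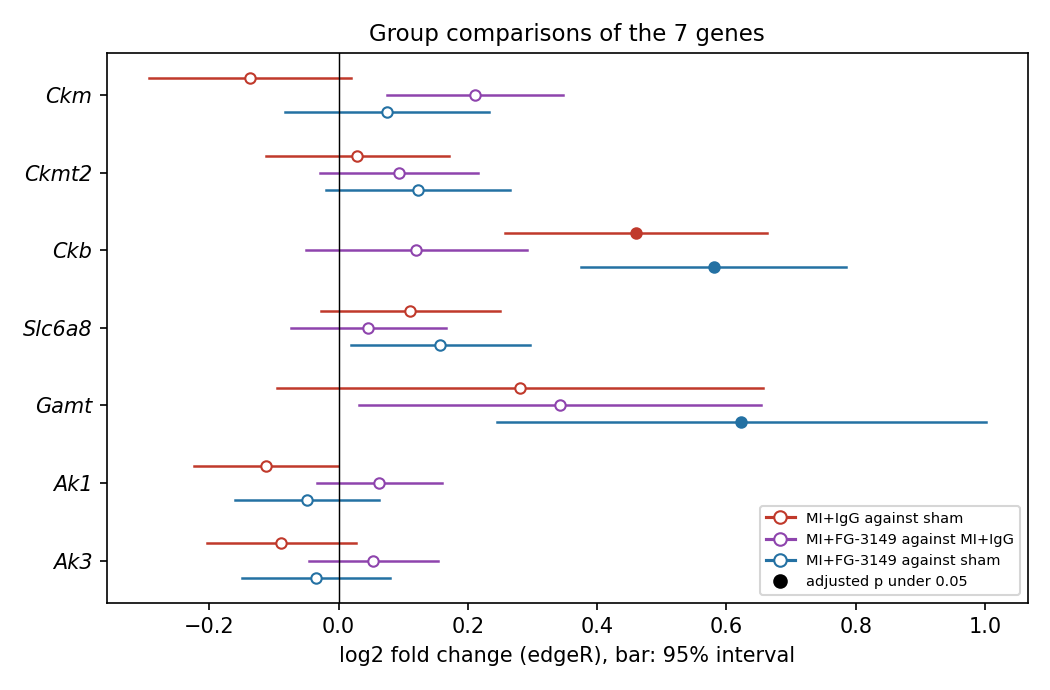
log2 fold change of each gene from the edgeR fit (x axis) in the 3 group comparisons, with its 95% interval; filled points have an adjusted p under 0.05. Ckb is filled in both comparisons with sham and Gamt in MI+FG-3149 against sham, and no point is filled in MI+FG-3149 against MI+IgG.

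With the CTGF antibody in place of IgG, 0 of the 7 genes passed the test. In that comparison 0.916% of tested genes were called higher and 0.156% lower. At an unadjusted p under 0.05 there were 2 of the 7 genes, Ckm and Gamt, beside 1849 of 13434 tested genes. DESeq2 and limma voom also called 0 of the 7. All 7 log2 fold changes were above 0, from 0.05 to 0.34 with a median of 0.09, where the median of all tested genes was -0.01. The libraries of the groups overlapped for all 7, and 3.14% of tested genes had groups that did not overlap.

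Ckm was at 2118, 2219, 2709, 2630 and 2636 CPM in FG-3149 replicates 1 to 5. Replicates 3, 4 and 5 lay above all IgG and sham libraries, and replicates 1 and 2 within the range of IgG. The log2 difference from IgG was 0.21 ± 0.07 (SE), a fold of 1.16 with an interval of 1.05 to 1.27 (edgeR adjusted p = 0.136, range over the alternatives 0.0269 to 0.295). Without FG-3149 replicate 1 the log2 difference was 0.26 and passed (edgeR adjusted p = 0.0406). On counts of last exons alone it was 0.36 and passed (edgeR adjusted p = 0.0269), and without first exons it was 0.23 and did not (edgeR adjusted p = 0.15).

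Ckmt2 was at 2644, 2652, 3224, 2819 and 2783 CPM with FG-3149, with replicate 3 the highest of all 13 libraries. Its log2 difference from IgG was 0.09 ± 0.06 (SE, edgeR adjusted p = 0.509), with an interval of the fold of 0.980 to 1.16. Ckb was at 61.4, 57.8, 75.6, 65.2 and 61.4 CPM, again with replicate 3 highest. Its difference from IgG was 0.12 ± 0.08 (SE) on the log2 scale, and the interval of the fold was 0.966 to 1.22. Slc6a8 went the other way in replicate 3, which at 244.4 CPM was its lowest FG-3149 library against 274.8 to 297.6 CPM in the others. The interval of its fold against IgG was 0.951 to 1.12.

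Gamt was at 4.70, 3.21, 5.09, 4.84 and 4.31 CPM with FG-3149. Only replicate 2 lay within the IgG range of 2.90 to 3.83 CPM. The log2 difference was 0.34 ± 0.15 (SE, edgeR adjusted p = 0.316), and on last exons alone it was -0.18 and so changed sign. Ak1 was at 626, 612, 717, 625 and 631 CPM, with replicate 3 apart from the others, and Ak3 had 163.8 ± 7.01 CPM (SD, n = 5). Their intervals against IgG were 0.977 to 1.12 for Ak1 and 0.969 to 1.11 for Ak3.

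Set against sham, which serves as control in this and in the IgG comparison, FG-3149 had 2 of the 7 genes higher and 0 lower. Of all tested genes 15.6% were called higher and 13.9% lower. Ckb rose 1.495-fold (log2 0.58 ± 0.10 SE, edgeR adjusted p = 0.000341), without overlap and in all 20 alternatives. Gamt rose 1.54-fold (log2 0.62 ± 0.18 SE, edgeR adjusted p = 0.0145), and all 5 FG-3149 libraries lay above the sham range of 2.65 to 2.98 CPM. The Gamt call ended without sham replicate 3 (edgeR adjusted p = 0.0542), without first exons (log2 0.48, edgeR adjusted p = 0.067) and on last exons alone (log2 0.52, edgeR adjusted p = 0.163). The range over its alternatives was 0.00411 to 0.163.

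Ckmt2 lay above sham in all 5 FG-3149 libraries without passing (log2 0.12 ± 0.07 SE, edgeR adjusted p = 0.184), and 32.2% of tested genes had groups that did not overlap here. Slc6a8 differed by 0.16 ± 0.07 (SE) on the log2 scale (edgeR adjusted p = 0.0812), and passed without FG-3149 replicate 3 (edgeR adjusted p = 0.0119). Ckm differed by 0.07 ± 0.08 (SE), and passed on last exons alone with 0.30 (edgeR adjusted p = 0.0148). The intervals of the fold were 0.895 to 1.04 for Ak1 and 0.901 to 1.057 for Ak3.

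The 5′ ends of the 7 genes held more of their counts with FG-3149. In all 7, the share of the gene's counts in first exons was higher in each FG-3149 library than in any sham library, as it was for 42.9% of 11370 tested genes with 4 or more exons. Against IgG the same held for 5 of 7 genes and 26% of genes, the exceptions being Ckb and Gamt. The first exon of Ckm, of 53 bases, held between 0.210% and 0.307% of its counts in sham. It held between 0.130% and 0.467% in MI+IgG and between 0.926% and 1.04% in MI+FG-3149. In Slc6a8 it held 2.01% to 3.14%, 2.53% to 5.16% and 7.88% to 10.6%. In Ak3 it held 0.665% to 0.973%, 1.23% to 2.15% and 3.64% to 4.53%. In Gamt it held 0.307% to 3.17%, 0% to 8.26% and 6.43% to 16.5%, a sizeable part of a gene with few counts. In Ckb the first exon held only 0 to 1.53 counts in sham, 0.151 to 3.62 in MI+IgG and 2.56 to 3.75 in MI+FG-3149. IgG replicate 4 had the highest first exon share of its group over all genes and in all 7. Its lead was small in Gamt, at 8.264% against 8.216% in IgG replicate 5, and in Ckb it rested on 3.62 counts.

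**Figure D3:**
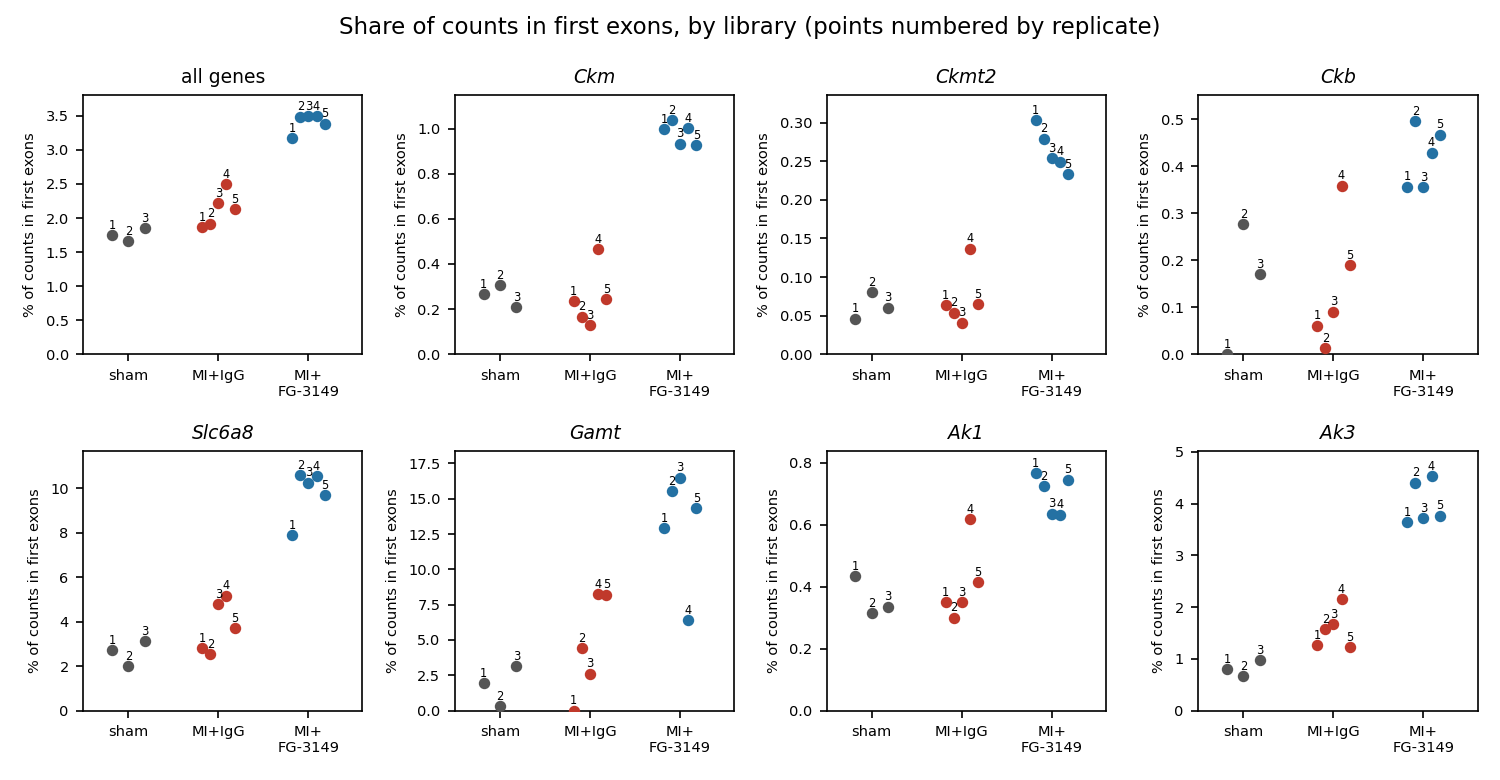
Percent of exon counts in first exons (y axis from 0) in every library, over all transcripts with at least 4 exons and for each gene; points are libraries numbered by replicate. The FG-3149 libraries lie at 3.18% to 3.50% over all genes against at most 2.49% with IgG, and IgG replicate 4 is the highest of its group in each panel.

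Ak1 had different deposited transcript shares in the groups. Its RefSeq transcripts differ at the 5′ end and share a last exon of 1418 bases. The deposited share of NM_001198791, which starts at 32625437, was 21.8%, 25.6% and 22.6% in sham. With IgG it was 24.7%, 15.3%, 22.6%, 55.0% and 26.1%, with replicate 4 far above the others. With FG-3149 it was 68.9%, 72.4%, 63.4%, 64.6% and 64.3%. The transcript NM_001198792, which starts at 32628390, had 71.1% to 73.7% in sham, 68.7% to 81.1% in the other IgG libraries, 37.0% in IgG replicate 4 and 24.2% to 29.6% with FG-3149. The shares of both transcripts thus exchanged places in the FG-3149 group, while the Ak1 gene level did not pass the test in any comparison.

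Few reads separated these transcripts. The first exon of NM_001198791, of 102 bases, held 12.4, 12.02 and 8.96 estimated counts in sham. With IgG it held 10.5, 7.24, 9.99, 43.3 and 12.2, and with FG-3149 44.2, 48.5, 35.3, 33.2 and 41.6. The first exon of NM_001198792, of 99 bases, held 14.2 to 20.5 in sham, 17.1 to 24.1 in MI+IgG and 8.85 to 15.1 in MI+FG-3149. Its last 38 bases are also exon 2 of NM_001198791, so these counts are not independent of the deposited shares. The gene as a whole had 6719 to 10735 counts per library. As a share of Ak1 counts, the first exon of NM_001198791 held 0.111% to 0.147% in sham, 0.0683% to 0.412% in MI+IgG and 0.448% to 0.606% in MI+FG-3149. The first exon share of the library moved with the same groups and with IgG replicate 4, and its part in the Ak1 transcript shares was not tested.

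**Figure D4:**
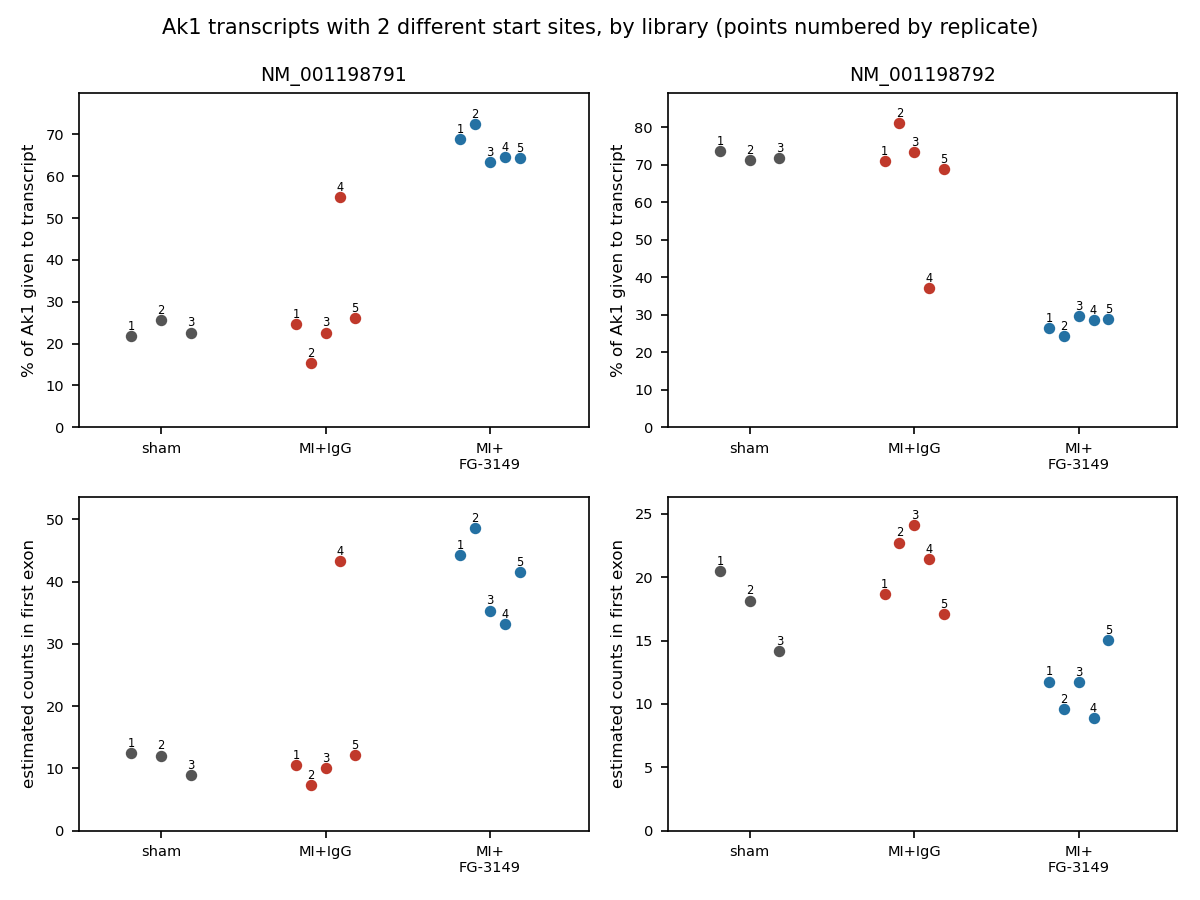
Upper panels, percent of Ak1 assigned to each of 2 transcripts; lower panels, estimated counts in the first exon of that transcript; both y axes start at 0 and points are libraries numbered by replicate. NM_001198791 takes 63.4% to 72.4% with FG-3149 and 55.0% in IgG replicate 4, against 15.3% to 26.1% in the remaining libraries.

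Other genes of the phosphotransfer system, listed by role, changed in both directions after infarction. Of 51 symbols listed, 40 could be tested. Of the others, 3 had no entry in the table and 8 were at or below 1.58 CPM in every library. In MI+IgG against sham, 10 of the 40 rose, 12 fell and 18 missed the threshold, with a median log2 fold change of 0.02. Over all tested genes 17.8% were higher and 15.9% lower. Without sham replicate 1, 13 of them were called in all, and without MI+IgG replicates 4 and 5, 14. Of the 22 calls, 11 held in all 21 alternatives. In MI+FG-3149 against sham, 8 were higher and 8 lower (median 0.05), against 15.6% and 13.9% of all tested genes, and in MI+FG-3149 against MI+IgG 0 of 40 passed (median 0.03).

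Most genes tested of the M-band, the sarcomere line where muscle creatine kinase docks, rose. Of 4 genes, 3 were higher with IgG than in sham and 0 lower, and the same 3 were higher with FG-3149, beside 17.8% and 15.6% of all tested genes called higher. The M-band structural protein Myom2 had a mean of 1633 CPM in sham (SD 146.3, n = 3) and of 2403 CPM in MI+IgG (SD 293.5, n = 5), a rise with a log2 fold change of 0.56 ± 0.11 (SE, edgeR adjusted p = 0.001). Its relative Myom1 rose by 0.27 ± 0.06 and Myom3, a low gene at 4.47 ± 0.62 CPM in sham, by 0.81 ± 0.15 on the log2 scale. For Myom3 the value was 0.42 on the log2(RPKM + 1) scale. All 3 calls held in all alternatives.

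Most genes tested for the exchange of phosphate compounds across the mitochondrial membranes fell with IgG. Of 6 tested, 0 were higher and 4 lower with IgG, and 2 were lower with FG-3149 against sham, beside 15.9% and 13.9% of all tested genes called lower. Of the 12 cardiomyocyte markers, 6 were also called lower in each of these comparisons, and their part in this count was not tested. Slc25a3, the phosphate carrier, fell from 1757 ± 65.8 to 1256 ± 64.8 CPM (log2 -0.485 ± 0.06 SE, edgeR adjusted p = 1.3e-05), and stood at 1395 ± 105.7 CPM with FG-3149. The outer membrane channels Vdac1 and Vdac3 fell by 0.21 ± 0.06 and by 0.32 ± 0.06 (SE) with IgG, in all alternatives. Vdac2 was called lower by 0.16 ± 0.06 (edgeR adjusted p = 0.0426), a call that 9 of 21 alternatives did not keep (edgeR adjusted p = 0.0188 to 0.133), among them the refits without MI+IgG replicates 4 and 5, without sham replicate 1, 2 or 3 and without IgG replicate 1, 2, 4 or 5. Slc25a4, the main ADP/ATP carrier of heart, had 5728 ± 211.1 CPM in sham, 5376 ± 298.9 with IgG and 5923 ± 402.9 with FG-3149, and was not called in any comparison.

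Among the adenylate kinases outside the 7 genes, 2 of 7 listed could be tested. Ak4, a mitochondrial matrix member, fell from 73.8 ± 5.70 to 51.9 ± 7.20 CPM with IgG (log2 -0.51 ± 0.10 SE, edgeR adjusted p = 0.000755), in all alternatives. With FG-3149 it stood at 60.0 ± 5.84 CPM (log2 -0.30 ± 0.10 SE against sham, edgeR adjusted p = 0.0301, range over the alternatives 0.00767 to 0.152). That call ended on last exons alone, without sham replicate 1 or 2 and without FG-3149 replicate 2, 3 or 5. Against IgG, Ak4 differed by 0.21 ± 0.09 (SE, edgeR adjusted p = 0.291), and it passed without IgG replicate 1 (edgeR adjusted p = 0.0422).

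In creatine supply, only Gatm, which encodes the amidinotransferase of the first step of creatine synthesis, could be tested. It rose with IgG from 2.80 ± 0.54 to 5.09 ± 1.18 CPM (log2 0.86 ± 0.21 SE, edgeR adjusted p = 0.00363), with libraries that overlapped. Counting last exons alone ended the call (edgeR adjusted p = 0.274), and on the log2(RPKM + 1) scale the value was 0.53. With FG-3149 it had 4.02 ± 0.58 CPM and did not pass against sham (edgeR adjusted p = 0.0748). The ubiquitous mitochondrial isoform Ckmt1, at or below 0.768 CPM in every library, was not tested.

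Of 11 nucleotide kinases, 2 were higher and 1 lower with IgG, and 3 higher and 2 lower with FG-3149 against sham. With IgG these counts lie near or below the shares of all tested genes, 17.8% higher and 15.9% lower, and with FG-3149 those shares were 15.6% and 13.9%. Nme1, a nucleoside diphosphate kinase, rose by 0.63 ± 0.09 (SE) on the log2 scale with IgG, from 19.4 ± 3.22 to 30.1 ± 1.42 CPM, and by 0.55 ± 0.09 with FG-3149, in all alternatives. Guk1, guanylate kinase, rose by 0.19 ± 0.06 with IgG, a call that 5 of 21 alternatives did not keep (edgeR adjusted p up to 0.109), namely the fit of these 2 groups alone and those leaving out sham replicate 1, sham replicate 3, IgG replicate 2 or IgG replicate 3. With FG-3149 it rose by 0.28 ± 0.06 in all alternatives. Of 8 genes of AMP handling, 1 was higher and 2 lower with IgG, near the shares of 17.8% and 15.9% of all tested genes. Adk, adenosine kinase, fell by 0.32 ± 0.06 (SE) on the log2 scale, from 213.6 ± 7.10 to 170.8 ± 7.95 CPM, in all alternatives. Nt5c1a, a cytosolic 5′-nucleotidase that cleaves AMP, was at 15.7 ± 1.96 CPM in sham, 11.97 ± 1.66 with IgG and 15.4 ± 1.37 with FG-3149. It was lower with IgG than in sham by 0.39 ± 0.12 (edgeR adjusted p = 0.0146), a call lost without sham replicate 1, without MI+IgG replicates 4 and 5 and with a replicate block (edgeR adjusted p up to 0.117). All FG-3149 libraries of Nt5c1a lay above all IgG libraries, and the log2 difference of 0.36 ± 0.10 did not pass (edgeR adjusted p = 0.0998).

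Of 8 genes listed for AMPK (its subunits and Stk11), 3 were higher and 4 lower with IgG. With FG-3149 against sham, 1 was higher and 2 lower. The shares of all tested genes were 17.8% and 15.9% with IgG, and 15.6% and 13.9% with FG-3149. The beta subunits went opposite ways. Prkab2, the form typical of muscle, rose from 73.4 ± 2.84 to 104.4 ± 2.50 CPM with IgG (log2 0.51 ± 0.08 SE, edgeR adjusted p = 8.5e-05) and stood at 108.8 ± 13.3 CPM with FG-3149. Prkab1 fell from 44.1 ± 2.27 to 35.1 ± 3.40 CPM (log2 -0.33 ± 0.08 SE, edgeR adjusted p = 0.00347). Both calls held in all alternatives with IgG. The catalytic subunit Prkaa1, at 26.9 ± 1.84 CPM in sham, fell with IgG by 0.26 ± 0.08 (SE) on the log2 scale. This call was lost without sham replicate 1 and on last exons alone (edgeR adjusted p up to 0.105). The other catalytic subunit, Prkaa2, was at 248 ± 29.7 CPM in sham. It was called lower with IgG by 0.18 ± 0.07 (SE, edgeR adjusted p = 0.043), a call that 11 of 21 alternatives did not keep. Of the other calls with IgG, Prkag1 (lower) was lost in 12 of 21 alternatives, Stk11 (higher) in 4 and Prkag2 (higher) in 3.

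**Figure D5:**
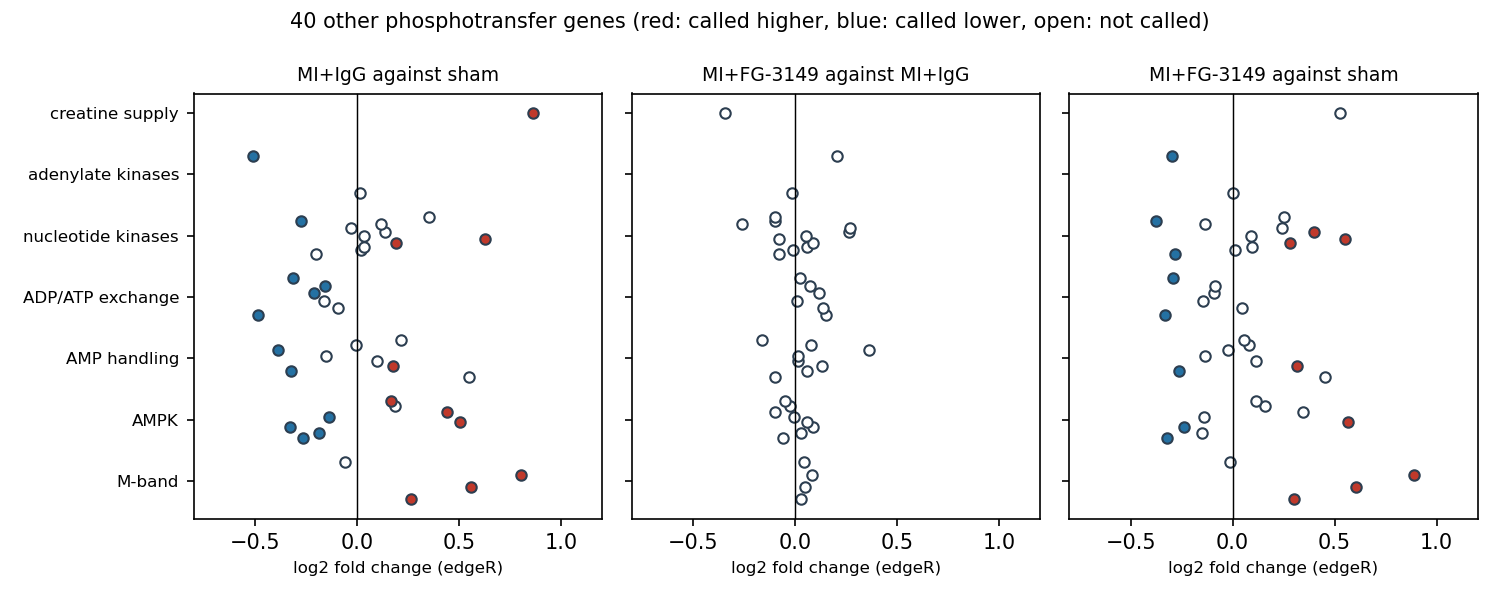
log2 fold change (x axis) of the 40 other phosphotransfer genes by role in the 3 comparisons; red points were called higher, blue lower, and open points were not called. ADP/ATP exchange genes lie left of 0 and M-band genes right of 0 in both comparisons with sham, except for single genes not called, and no point is filled in MI+FG-3149 against MI+IgG.

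Genes most alike in their deviations from the group means over the 13 libraries were sought among 9392 genes whose mean log2 CPM reached 3 (9393 for Gamt). These values share library depth and scaling, and are given without a test. Ckm was most like Vdac2 (Pearson r = 0.943, Spearman rho = 0.945) and Timm17a, a subunit of the mitochondrial import channel (r = 0.929). Ckmt2 was most like St3gal5 (r = 0.971) and Gdi2 (r = 0.954), and Ckb most like S100a6 (r = 0.953) and Rap2b (r = 0.934). Ak3 was most like Mpc1, of the mitochondrial pyruvate carrier (r = 0.934). Ak1 was most like Uqcr10, of complex III (r = 0.923), and Minos1 (r = 0.914), with lower rank correlations of 0.786 and 0.758. Slc6a8 was most like Flywch1 (r = 0.936) and Ankrd10 (r = 0.916). For Gamt the closest were Lamp1 (r = 0.902) and Plin2 (r = 0.883). Among the 7 genes, Ckm and Ckmt2 were the most alike pair (r = 0.793, rho = 0.868), and Slc6a8 and Ak1 the least (r = -0.775, rho = -0.615). FG-3149 replicate 3 was the highest library of Ak1 at 717 CPM and the lowest FG-3149 library of Slc6a8 at 244.4 CPM. The weight of this library in the r of Slc6a8 and Ak1 was not tested.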

How the data were processed

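The authors deposited estimated counts per gene, transcript share and exon, and RPKM values per transcript; the genome build was mm10 per the submitters' processing notes. No source used here gives the aligner, counter, annotation version or strand setting. Reads shared between similar genes may therefore have been split. Per the labels' protocols, all 13 stranded mRNA libraries were run together with single reads. The replicates were treated as separate animals, as the design text speaks of animals; where they were not, p-values measure only the spread between samples.

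Estimated counts were rounded, and 379 entries repeating a symbol were left out. The 13434 genes kept by filterByExpr were fitted with edgeR 4.0.16 (R 4.3.3; TMM factors, robust quasi-likelihood, all 13 libraries, no covariate). A call needed an adjusted p (Benjamini-Hochberg) below 0.05. The SE is the log2 fold change divided by the square root of F, and intervals are 95%. The deposited RPKM values were summed over transcripts to compare genes. Library totals of 10954922 to 17567238 set the precision of low genes, and intervals over samples include counting error. Permutation tests used SciPy 1.17.1.

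All 7 genes are named. Of each role group, up to 3 tested genes with the smallest p per comparison could be named, and a part of them is. Ckmt1, Prkaa2, Prkag1 and Prkag2 are named besides. For each gene the 2 most alike genes, and for each marker list the 2 highest genes, were taken; a few of these genes are not reported here. The remaining marker lists gave summed levels of 199.6 to 208.1, 154.9 to 213.9 and 162.8 to 197.6 RPKM (sham, IgG, FG-3149) for smooth muscle and pericytes, 2.33 to 3.35, 3.55 to 6.90 and 2.02 to 4.54 for glia and neurons, 22.4 to 24.8, 25.3 to 36.8 and 25.9 to 37.7 for adipocytes, and 393.3 to 587.7, 235.5 to 1129 and 327.0 to 1026 for red blood cells. The adipocyte sum was led by Cidea. Adipoq was at 4.40 RPKM in IgG replicate 5 and 2.93 RPKM in FG-3149 replicate 3, against at most 0.543 RPKM elsewhere. The part of fat tissue in the levels of the 7 genes was not tested. Members and lists were chosen with earlier results of these data known. Alternatives were other scalings (relative log expression, library totals), DESeq2 1.42.0, limma voom (limma 3.58.1), other filters, RPKM on a log2 scale with pseudocounts of 1 and 0.1, a replicate block, fewer groups and leaving out each library. Counts without first exons, counts on last exons alone and leaving out MI+IgG replicates 4 and 5 together were added after seeing the data.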

Additional observations from a re-analysis of the deposited data

Results flagged for a closer look

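In groups of 5 libraries, a library was singled out where its gap to the nearest other exceeded 0.71 of the group's range (Dixon's test). Of 42 groups examined, 5 had such a library, and chance gives about 1 in 20. Ak1 was at 717.5 CPM in FG-3149 replicate 3, against 612.2 to 630.7 CPM in the other 4. IgG replicate 4 stood apart in 3 measures. Its Ak1 transcript NM_001198791 took 55.04% of the gene against 15.3% to 26.1%, and NM_001198792 took 36.98% against 68.7% to 81.1%. Its Ckmt2 first exon held 0.1369% of counts against 0.0411% to 0.0653%. The minor Ak1 transcript NM_021515 took 3.291% in FG-3149 replicate 3 against at most 1.715%. The Ak1 transcript shares of a library sum to 100, so they are not separate measures.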

How the results depend on the processing

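The Ckb calls against sham held in all alternatives (21 with IgG, 20 with FG-3149). With 1 library left out, 0 to 1 of the 7 genes were called in MI+FG-3149 against MI+IgG and 1 to 3 in MI+FG-3149 against sham, where only Ckb was left without sham replicate 3. Counting last exons alone called 1 of 7 (Ckm) against IgG and 2 (Ckb and Gamt) in MI+IgG against sham, and leaving out first exons called 1 (Ckb) in MI+FG-3149 against sham. Of the other phosphotransfer genes, 13 to 20 were called in MI+IgG against sham and 0 to 1 in MI+FG-3149 against MI+IgG with 1 library left out, and 14 in MI+IgG against sham without MI+IgG replicates 4 and 5. Of all genes tested, 144 were called in MI+FG-3149 against MI+IgG, with 281 by DESeq2, 83 on these 2 groups alone, 74 without first exons, 81 on last exons alone, 70 without MI+IgG replicates 4 and 5 and 68 to 271 with 1 library left out. The lowest was without IgG replicate 2 and the highest without IgG replicate 1. The causes were not tested; last exons hold fewer counts.

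Among the 7 genes, directions turned in 6 cases, all of genes that did not pass; turned signs of the other phosphotransfer genes are not listed. Last exons alone gave 0.0046 for Ak1 (MI+FG-3149 against sham), -0.0152 for Ckmt2 (MI+IgG against sham), and -0.183 for Gamt and -0.0113 for Slc6a8 (MI+FG-3149 against MI+IgG). Without first exons Slc6a8 had -0.0225 in the last comparison, and without IgG replicate 3 Ckmt2 had -0.00712 against sham, the low end of a range that reached 0.05 with 1 library left out.

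The replicate numbers gave no clear sign of paired samples: same-numbered libraries of different groups correlated at -0.042 to 0.178. Such correlations cannot exclude a weak pairing. With a replicate block, 1, 0 and 2 of the 7 genes were called in the 3 comparisons (IgG against sham, FG-3149 against IgG, FG-3149 against sham), the block also gave 18, 0 and 15 of the other phosphotransfer genes, and 4139, 215 and 3576 of all genes. In the pairs of IgG and FG-3149 libraries, 1 of 5 correlated best with its own number. Depth limits Gamt, with 32 to 68 counts per library.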
